A study of Elaeis guineensis with 58 samples.

Results

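The palms described here are oil palm (Elaeis guineensis) ortets, the mother palms from which tissue is taken for cloning, that agency L2 supplied and that past records place in a high or a low embryogenesis group. They were taken by their labels, as all high and low palms of L2 whose spear leaf RNA was extracted with the InnuPREP kit. This gave 8 high and 6 low palms, 14 of the 58 libraries of the series. Earlier results of these data were known when this comparison was chosen. Zero palms of L2, which had given no embryoid line, were left out. A high palm had given at least 90 embryoid lines in culture and a low palm 1 to 89. The high palms had given 129, 434, 534, 179, 140, 280, 91 and 191 lines, in the order high palm 1 to high palm 8, and the low palms 30, 11, 36, 37, 2 and 35 lines, in the order low palm 1 to low palm 6. The palms nearest the limit were thus high palm 7 with 91 lines and low palm 4 with 37.

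High palms 1 to 6 carried the genotype label Jen Avros, high palm 7 Yangambi_C and high palm 8 Jen Avros Yangambi. Low palm 1 was labelled Jen Avros, low palm 3 Yangambi_C, and low palms 2, 4, 5 and 6 Yangambi_B. All 14 libraries were made alike by 3′ end sequencing of the spear leaf, the youngest frond, which is still folded (frond F0). The labels give neither the age of a palm nor its treatment, and the replicates of a group are separate palms. What was sampled is the leaf of the mother palm, not the cultures in which embryoid lines were counted.

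Oil palm is cloned by somatic embryogenesis: explants of immature leaf form callus, and embryos that never passed through a seed arise from part of that callus. How readily this happens differs widely between genotypes, and auxin, whose signal is read through Aux/IAA repressor proteins, is the usual trigger in culture. Embryo regulators such as BABY BOOM and DNA methylation are often studied in this setting. The folded spear leaf is also a tissue in which plastids are still developing.

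High libraries held between 10006633 and 15004694 counts assigned to genes, and low libraries between 8773354 and 14661769. Reads outside any gene made up 9.35% ± 0.507 (SD, n = 8) of high and 10.5% ± 0.715 (SD, n = 6) of low libraries, a difference with p = 0.00899 in a two-sided exact permutation test and 0.0539 after adjustment over 6 library measures. The 10 most abundant genes took 10.8% ± 1.99 and 8.61% ± 1.48 of the counts (exact permutation p = 0.0486, adjusted 0.146). Multi-mapped share, ambiguous share, plastid share and total count had adjusted p from 0.425 to 0.77 in the same exact test. Low palm 3 stood apart from the other low palms, with 9.16% of reads outside genes against 10.6% to 11.3%. As leaf markers, 7 plastid genes including rbcL and psbA were all tested. Their summed levels were 1237 to 4054 CPM (library-scaled counts) in high and 1288 to 2726 CPM in low palms. Of the 7, 0 were called different, against 23.4% over all genes, with log2 differences from -0.60 to 0.92. So few genes do not show the groups to be alike.

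A large share of the measured leaf transcriptome differed between high and low palms. Of 19922 genes tested with edgeR's quasi-likelihood test, 4670 were called at an adjusted p below 0.05, which is 23.4%. Higher levels in high palms were called for 2081 genes (10.4%) and lower levels for 2589 (13%). The median size of the called differences was 1.02 on the log2 scale, and 993 higher and 1406 lower called genes had an estimate of at least 2-fold. Tested against a 2-fold minimum, edgeR called 100 genes, 29 higher and 71 lower. The median difference over all genes was 0.01. A level in bulk leaf RNA cannot tell fewer cells of a type from less RNA per cell.

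Few of these genes separated the groups palm by palm. The CPM ranges of the 8 high and 6 low palms did not overlap for 526 genes (2.64% of those tested), 218 higher and 308 lower in high palms, and 519 of these were called. The calls were spread over abundance classes and kinds of gene. They took 18.0% of genes under a log2 CPM of 1 on average, 25.6% of those between 3 and 5, and 18.3% of those above 7. Protein-coding genes were called in 23.7% of 18058 cases and long non-coding RNAs in 18.6% of 516.

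A fit with the genotype label as a term called 581 genes, 150 higher and 431 lower. The share of higher genes among those called went from 44.6% to 25.8%. In that fit the difference between groups rests on the Jen Avros and Yangambi_C palms, whose labels hold both a high and a low palm. With 2 library shares as terms, that of reads outside genes and that taken by the 10 most abundant genes, edgeR called 0 genes, with 1985 at an unadjusted p below 0.05. The second of these shares is computed from the gene counts themselves. Without low palm 1 the count of called genes fell to 3093.

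**Figure D1:**
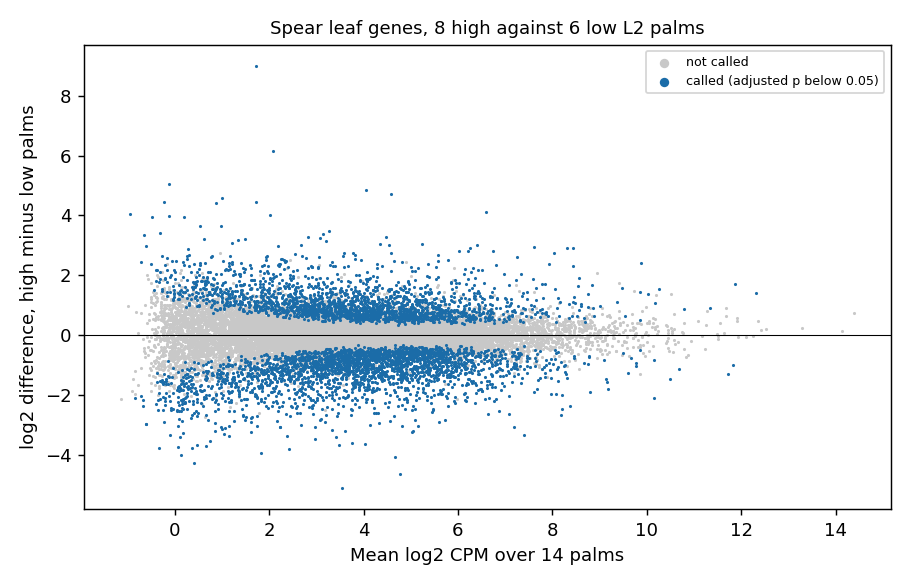
Each point is 1 of the 19922 genes tested, with its mean log2 CPM over the 14 palms on the x axis and its log2 difference, high minus low palms, on the y axis. Blue points are the 4670 called genes, which lie on both sides of 0 and at all abundance levels.

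Among called genes whose log2 CPM averaged 1 or more and whose groups did not overlap, LOC105054150 and LOC105059333 rose most and LOC105058870 and LOC105032996 fell most. All are protein-coding in the EG11 annotation, and the files give them no product name. LOC105054150 was counted at 741, 734, 310, 297, 881, 161, 704 and 135 CPM in high palms 1 to 8, and at 4.69, 15.4, 120, 10.8, 14.4 and 6.25 CPM in low palms 1 to 6. The groups did not overlap, but low palm 3 came close to high palm 8 while the other low palms lay far under the high range. The means were 495 ± 299 CPM (SD, n = 8) and 28.6 ± 45.1 CPM (SD, n = 6), a log2 difference of 4.11 ± 0.80 (SE) with an edgeR adjusted p of 0.00324. For LOC105059333 the high palms held 4.52 to 25.3 CPM with a median of 18.5, and the low palms 0 to 3.77 CPM with a median of 0.499. The same 2 palms set the edges, high palm 8 at the bottom of the high range and low palm 3 at the top of the low range. The log2 difference was 4.00 ± 0.67 (SE), with an edgeR adjusted p of 0.00178.

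LOC105058870 showed the opposite order, with 1.40, 1.41, 0.625, 2.48, 2.47, 3.71, 3.01 and 11.0 CPM in high palms 1 to 8, and 201, 73.1, 12, 116, 133 and 156 CPM in low palms 1 to 6. High palm 8 and low palm 3 lay beside each other between the bulk of the groups. Its log2 difference was -5.12 ± 0.63 (SE), with an edgeR adjusted p of 0.000734, the smallest value in this comparison, which other genes shared. LOC105032996 had 1.09 to 3.54 CPM in high palms, with a median of 2.36, and 65.3, 57.8, 4.58, 7.72, 4.31 and 44.3 CPM in low palms 1 to 6. Here the low palms fell apart into high values in palms 1, 2 and 6 and values close to the high group in palms 3, 4 and 5. The log2 difference was -3.80 ± 0.61 (SE), with an edgeR adjusted p of 0.00145.

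Of the genes next to these 4 in the EG11 order, 4 were tested and 0 were called by edgeR. The closest to the threshold, beside LOC105058870, had a log2 difference of -1.03 (edgeR adjusted p = 0.0683). In libraries made from CTAB extracts of high palms 3 and 8 and low palms 5 and 6, the 4 leading genes had log2 differences of 4.36, 3.60, -4.83 and -3.29, in the order in which they were introduced. None was called there with 2 palms a group, the edgeR adjusted p running from 0.292 to 0.376. The genes had been picked for no overlap in groups that hold these same palms. The CTAB values thus repeat the extraction and add no new palms.

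**Figure D2:**
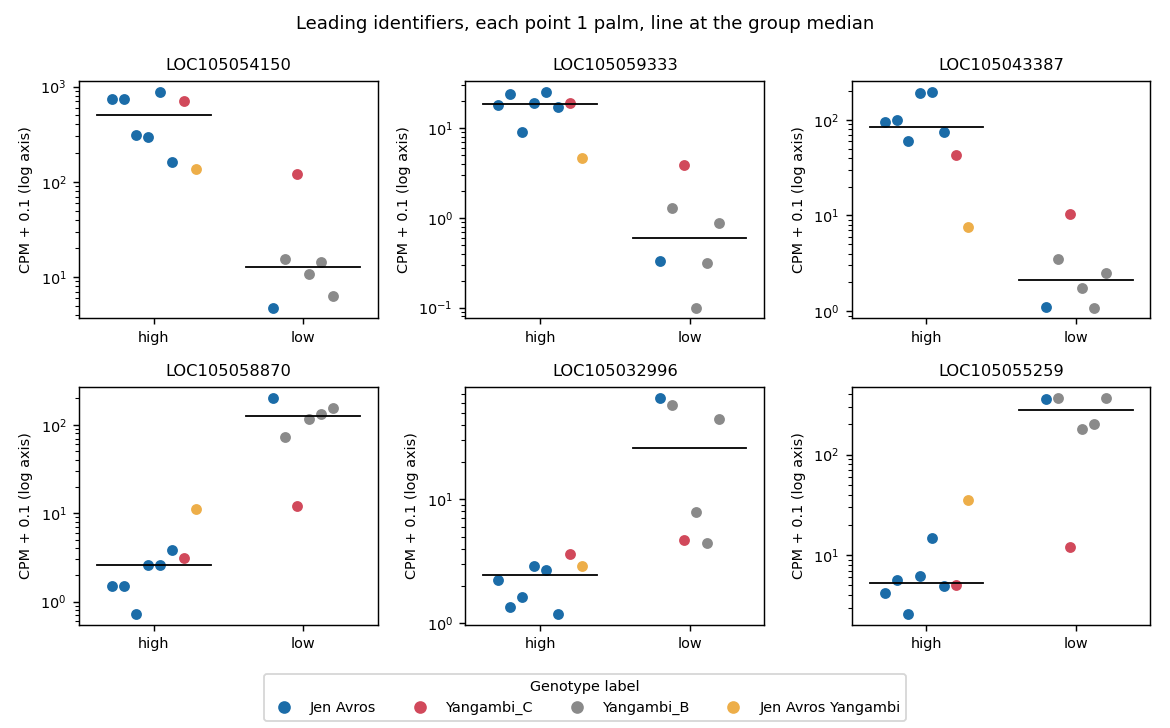
CPM + 0.1 on a log axis for 6 leading identifiers, each point 1 palm coloured by genotype label, with a black line at the median of the 8 high or 6 low palms. In the 5 panels other than LOC105032996 the low Yangambi_C palm (red, low) lies apart from the other low palms towards the high palms, and the high Jen Avros Yangambi palm (yellow) has the high group's value closest to the low palms.

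The files name few nuclear genes of this palm, and those that carry a symbol or a synonym in the EG11 table were read by function. Of 13 tested genes with a symbol, 0 rose and 2 fell, with a median log2 difference of 0.05. Of 28 tested genes with a synonym, 2 rose and 2 fell, with a median of 0.14. These 6 of 41 genes (14.6%) compare with 23.4% called over all genes.

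The 6 called genes are described in turn. GPAT, a glycerol-3-phosphate acyltransferase that starts the assembly of glycerolipids, was at 5.83 to 21.8 CPM in high palms (median 10.4) and 16.2 to 32.4 CPM in low palms (median 26.8). High palm 8 at 21.8 CPM and low palm 2 at 16.2 CPM were the palms that made the groups overlap. GPAT fell by 1.19 on the log2 scale ± 0.24 (SE), from 25.7 ± 5.81 CPM (SD, n = 6) in low to 11.3 ± 4.64 CPM (SD, n = 8) in high palms, with an edgeR adjusted p of 0.00395. The dxs gene LOC105057845, for 1-deoxy-D-xylulose-5-phosphate synthase at the entry of the plastid isoprenoid pathway, was at 18.6 to 82.8 CPM in high palms (median 41.6) and 74.5 to 247 CPM in low palms (median 116). The 2 high palms above the lowest low palm were high palms 7 and 8, the palms not labelled Jen Avros. It fell by 1.45 on the log2 scale ± 0.36 (SE), with an edgeR adjusted p of 0.0101. The TPX gene LOC105044458 had 276 to 527 CPM in high palms (median 355) and 193 to 312 CPM in low palms (median 265). High palms 3 and 8, at 311 and 276 CPM, lay within the low range. TPX rose by 0.58 ± 0.19 (SE) on the log2 scale (edgeR adjusted p = 0.0382), a call that ended in 7 of 14 fits leaving out 1 palm (high palm 1, 4 or 5, or low palm 1, 2, 5 or 6).

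The aquaporin gene AQP (LOC105042909), a water channel, was at 95.9 to 209 CPM in high palms (median 120) and 185 to 590 CPM in low palms (median 271). Only high palm 8, at 209 CPM, reached into the low range, whose lowest value was low palm 3. AQP fell by 1.28 on the log2 scale ± 0.25 (SE), and edgeR gave an adjusted p of 0.00358. IAA1 codes for an Aux/IAA repressor of auxin response. It was at 56.6, 105, 211, 66.4, 73, 35.6, 30.3 and 72.5 CPM in high palms 1 to 8, and at 221, 273, 51.8, 202, 215 and 239 CPM in low palms 1 to 6. The groups crossed in both directions, through high palm 3 and low palm 3. IAA1 fell by 1.30 on the log2 scale ± 0.41 (SE) with an edgeR adjusted p of 0.032, and the call ended in 10 of 14 fits leaving out 1 palm (high palm 1, 4, 5, 6 or 7, or low palm 1, 2, 4, 5 or 6). With the library shares as terms its log2 difference turned to 0.15 (edgeR adjusted p = 0.952).

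Phosphorelay and kinase signalling genes did not pass the test. AHP1, a histidine phosphotransfer protein of cytokinin signalling, had a log2 difference of 0.47 (edgeR adjusted p = 0.169), with 89.5 to 217 CPM in high and 68.3 to 159 CPM in low palms. GSK, a shaggy-like kinase, had 0.69 (edgeR adjusted p = 0.0649). GSK passed the threshold in 4 alternatives, with adjusted p of 0.0428 by DESeq2 and, by edgeR, 0.0467 with all 20 L2 InnuPREP libraries, 0.014 without high palm 8 and 0.018 without both Y palms, and its log2 difference turned to -0.66 in the CTAB libraries. The sixth called gene, EMZ08 (LOC105044578), was at 12.5 to 142 CPM in high palms (median 45.8) and 7.57 to 25.4 CPM in low palms (median 21.0). High palms 6 and 7, at 12.5 and 22.4 CPM, lay within the low range. EMZ08 rose by 1.57 ± 0.47 (SE) on the log2 scale with an edgeR adjusted p of 0.0262, a call that ended without low palm 1 or low palm 6, with limma-voom (adjusted p = 0.0558), with the genotype term (0.417) and with the Yangambi_B palms as the only low palms (0.0726).

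The remaining tested genes with a symbol were not called by edgeR. GST, a glutathione S-transferase, had a log2 difference of -0.88 and DRM one of 0.81 (adjusted p 0.122 and 0.269). The acyl-ACP thioesterase gene PTE had -0.35 (edgeR adjusted p = 0.218). CPRF, CPRZ, ADPRF, HCS and TCTP lay between -0.23 and 0.27. The 21 other tested genes with a synonym had log2 differences from -0.55 to 0.63 with a median of 0.14, and 0 were called, the smallest edgeR adjusted p being 0.0943.

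Most of the embryo and flower regulators with a name lay below the filter on low counts, and of the tested regulators and DNA methyltransferases none was called. BBM (LOC105039637), the oil palm BABY BOOM gene, had 33 counts over the 8 high and 38 over the 6 low libraries and was not tested. High palm 3 held 27 and low palm 2 held 28 of them, and no other palm had more than 5. Of 12 flower, homeobox and embryo regulators, MADS-box genes for the most part and BBM among them, 2 passed the filter and 0 were called. These were the GLOBOSA-type genes GLO2, at 0.66 (edgeR adjusted p = 0.156), and GLO1 (LOC105037274), at 0.88 (edgeR adjusted p = 0.2), both as log2 differences. The homeobox gene KNOX1 had 12 counts in high and 8 in low libraries. Of 3 DNA methyltransferase genes, EgMET1 (LOC105055950), the maintenance enzyme, had a log2 difference of -0.41 (edgeR adjusted p = 0.394), and EgDRM1 (LOC105032137), a de novo enzyme, had 0.34 (edgeR adjusted p = 0.362). EgCMT1 (LOC105056476), a chromomethylase, had 54 counts in each group and was below the filter.

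**Figure D3:**
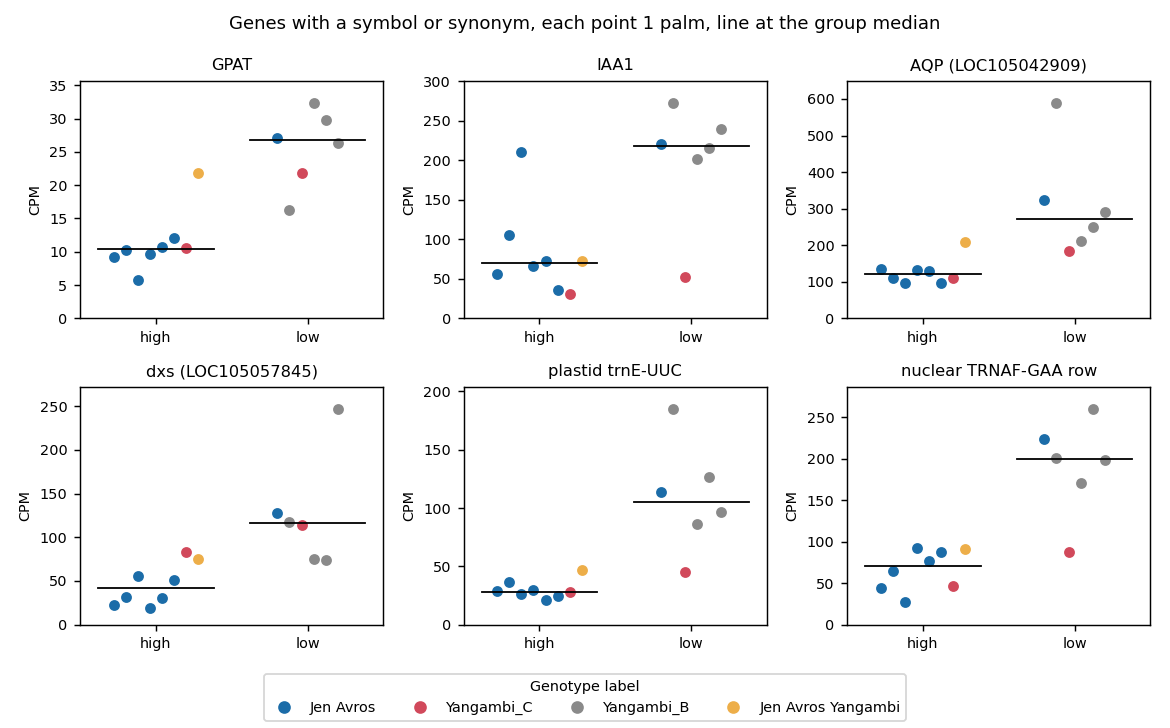
CPM of 6 called genes with a symbol or synonym, each point 1 palm coloured by genotype label, with a black line at the median of the 8 high or 6 low palms and axes starting at 0. The low Jen Avros palm (blue, low) lies above every high Jen Avros palm in all 6 panels, and the low Yangambi_C palm (red, low) has the lowest value of the low palms for IAA1, AQP, trnE-UUC and TRNAF-GAA.

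Plastid genes as a whole did not follow the group. Of the plastid genes in the files 85 were tested, 1 rose and 4 fell, which is 5.88% against 23.4% over all genes, and their median log2 difference was -0.07. Of the protein complexes, photosystem I, cytochrome b6f, ATP synthase with rbcL, and the plastid ribosome with polymerase had 0 called genes among 5, 5, 7 and 21 tested. Photosystem II had 1 of 15 and the NDH complex 1 of 9. How well 3′ end libraries capture plastid transcripts or tRNA was not tested.

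Of the plastid tRNA genes 15 were tested and 3 called (20.0%, against 23.4% over all genes). The glutamate tRNA gene trnE-UUC, whose product also starts the synthesis of chlorophyll and haem, was at 28.6, 36.3, 26.2, 29.6, 21.5, 24.4, 27.6 and 47.1 CPM in high palms 1 to 8, and at 114, 185, 45.1, 86.2, 127 and 96.9 CPM in low palms 1 to 6. The groups were apart except that low palm 3 lay just under high palm 8. It fell by 1.85 on the log2 scale ± 0.26 (SE; edgeR adjusted p = 0.000943). For tyrosine, the tRNA gene trnY-GUA was at 20.7 to 83.2 CPM in high palms (median 46.5) and 71.8 to 132 CPM in low palms (median 122). High palm 4 at the top of the high range and low palm 3 at the bottom of the low range crossed. It fell by 1.28 on the log2 scale ± 0.28 (SE), with an edgeR adjusted p of 0.00607. Land plant plastids usually transcribe trnE and trnY together with the aspartate tRNA gene trnD-GUC, which was at 0.766 CPM in high and 1.23 CPM in low palms and was not called (log2 difference -0.66, edgeR adjusted p = 0.39). trnD-GUC was chosen after its values were seen. At so low a level, the missing call does not show that it differs from trnE and trnY. In trnS-GCU, a serine tRNA gene, levels were 8.04 to 22.6 CPM in high palms (median 15.6) and 5.09 to 15.2 CPM in low palms (median 7.81), which overlap. It rose by 0.89 ± 0.30 (SE) on the log2 scale (edgeR adjusted p = 0.041), a call that ended in 11 of 14 fits leaving out 1 palm, without each of high palms 1 to 6 and each of low palms 1, 2, 4, 5 and 6.

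The 2 other plastid calls were of protein genes. The NDH subunit gene ndhA, of cyclic electron flow, was at 52.0 to 144 CPM in high palms (median 97.8) and 121 to 247 CPM in low palms (median 157). High palms 4, 6 and 8 lay within the low range. ndhA fell by 0.68 on the log2 scale ± 0.22 (SE), with an edgeR adjusted p of 0.0363. Leaving out high palm 1, 2, 5 or 7 or low palm 1, 2 or 6 ended the call. The photosystem II gene psbJ was at 3.20 to 13.6 CPM in high palms (median 6.82) and 9.37 to 26.3 CPM in low palms (median 12.6). High palms 6 and 8 reached into the low range. psbJ fell by 0.88 on the log2 scale ± 0.31 (SE), with an edgeR adjusted p of 0.0485. That call ended without each of high palms 1, 2, 3, 4, 5 and 7 and each of low palms 1, 2, 3, 5 and 6. The genes usually transcribed with psbJ, namely psbE, psbF and psbL, had log2 differences of -0.07, 0.10 and -0.43 and were not called, with edgeR adjusted p of 0.893, 0.859 and 0.568. They too were chosen after their values were seen.

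Nuclear tRNA genes, which the files give as 1 row per symbol where the EG11 table lists several loci of that symbol, passed the filter in 3 of 46 cases. Of these 3 rows 2 fell, too few to set against the 23.4% called over all genes. TRNAF-GAA, for phenylalanine, was at 27.0 to 92.2 CPM in high palms (median 70.7) and 87.2 to 260 CPM in low palms (median 199). High palms 4, 6 and 8 lay just above low palm 3, the lowest of the low palms, and under all other low palms. It fell by 1.52 on the log2 scale ± 0.28 (SE), with an edgeR adjusted p of 0.00278. TRNAT-CGU, for threonine, was at 0.0619 to 1.33 CPM in high palms (median 0.373) and 0.562 to 5.54 CPM in low palms (median 1.52). The low Jen Avros palm had the highest of these values and the groups overlapped. TRNAT-CGU fell by 2.20 on the log2 scale ± 0.59 (SE) with an edgeR adjusted p of 0.015, a call that ended without low palm 1. Reads of identical copies cannot be split between them, so counts of tRNA rows are uncertain.

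Genotype label and group run together in these palms, and the labels Jen Avros and Yangambi_C are the ones that hold both a high and a low palm. Comparing palms of 1 label therefore rests on low palm 1 or low palm 3 alone, each assumed to vary as the other palms do. High Jen Avros palms (n = 6) differed from the low Jen Avros palm in 802 genes by edgeR, 4.03% of those tested, 211 higher and 591 lower. DESeq2 called 1941 in the same comparison, and the edgeR count went to 499 without high palm 2 and 508 without high palm 4.

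The leading genes within the label included some that led the comparison of all palms, in which the same Jen Avros palms take part. LOC105043387 was at 94.0, 98.9, 60.4, 190, 196 and 74.2 CPM in the high Jen Avros palms and at 1.00 CPM in the low one. LOC105055259 was at 4.11, 5.50, 2.50, 6.11, 14.8 and 4.86 CPM in the high ones and at 362 CPM in the low one. Both were picked for a large fold within the label, with every high palm on the same side of the low palm. That the low palm lay outside the range of the high palms of its label was thus fixed by the choice. Their log2 differences within the label were 6.88 ± 1.07 and -5.85 ± 0.55 (SE), with edgeR adjusted p of 0.00636 and 0.000408. The gene beside LOC105055259 in the EG11 order fell by 1.40 on the log2 scale in the comparison of all palms (edgeR adjusted p = 0.00195). LOC105054150 and LOC105058870 were the other 2 leading genes within the label, at 6.79 ± 1.23 and -6.64 ± 0.49 (SE), with edgeR adjusted p of 0.0131 and 5.84e-05.

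Of the genes with a symbol or synonym, some kept their call within the label and others did not. All had been picked as called over all palms, in which the same Jen Avros palms take part. A kept call is therefore no separate support. GPAT fell by 1.50 on the log2 scale ± 0.36 (SE; edgeR adjusted p = 0.0395), trnE-UUC fell by 2.04 ± 0.34 (edgeR adjusted p = 0.00856) and TRNAT-CGU fell by 3.71 ± 0.62 (edgeR adjusted p = 0.00927). AQP, at -1.48, dxs (LOC105057845), at -1.87, and TRNAF-GAA, at -1.78, had log2 differences wider than over all palms but were not called (edgeR adjusted p 0.0715, 0.0968 and 0.0509). IAA1 had -1.28 (edgeR adjusted p = 0.27). TPX (LOC105044458), EMZ08 (LOC105044578), ndhA, psbJ, trnS-GCU and trnY-GUA were not called within the label either, with edgeR adjusted p from 0.0987 for trnS-GCU to 0.509 for ndhA.

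Among low palms, the low Jen Avros palm lay with those labelled Yangambi_B in the position and the pairwise differences given below. It is 1 palm whose spread is taken from the other palms, so that few calls add nothing to its closeness. Between it and the 4 low Yangambi_B palms edgeR called 0 genes (0% of those tested), with 298 at an unadjusted p below 0.05, DESeq2 called 3 and limma-voom 0. Each palm was also placed on a scale from 0, the mean of the low palms, to 1, the mean of the high palms, over the genes called and with the means computed in the other 13 palms. Low palm 1 was at -0.15, the 4 Yangambi_B palms at 0.00 ± 0.08 (SD, n = 4), and the 6 high Jen Avros palms at 0.99 ± 0.10 (SD, n = 6). Of the 3083 genes that place low palm 1, 2916 (94.6%) were nearer the low mean. Its value lay within the range of the high Jen Avros palms in 210 of these genes (6.81%) and within that of the low Yangambi_B palms in 2149 (69.7%). These genes were called between groups made up mostly of those labels. Over all 19922 genes tested, 74.0% were nearer the low mean, and its value lay within those ranges in 51.5% and 72.5%. The first range spans 6 palms and the second 4.

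The low Yangambi_C palm did not lie with the other low palms. Low palm 3, placed in the same way, was at 0.74, against -0.15 to 0.07 for the other low palms and 1.00 for high palm 7, the high palm of its label. Genes and means were set anew for each palm, so positions are not on exactly the same scale. High palm 8 entered the means that place low palm 3, and low palm 3 those that place high palm 8. Low palm 3 was nearer the high mean in 4340 (71.4%) of the 6075 genes that place it. Its value lay within the high Jen Avros range in 3590 (59.1%) and within the low Yangambi_B range in 1561 (25.7%). Over all 19922 genes tested these shares were 60.7%, 65.9% and 48.2%. High palm 8, labelled Jen Avros Yangambi, was at 0.45, with 2278 of 5166 genes (44.1%) nearer the high mean (47.9% over all genes tested). The high palm with the fewest lines, high palm 7 with 91, was at 1.00, and the low palm with the most lines, low palm 4 with 37, at 0.04.

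**Figure D4:**
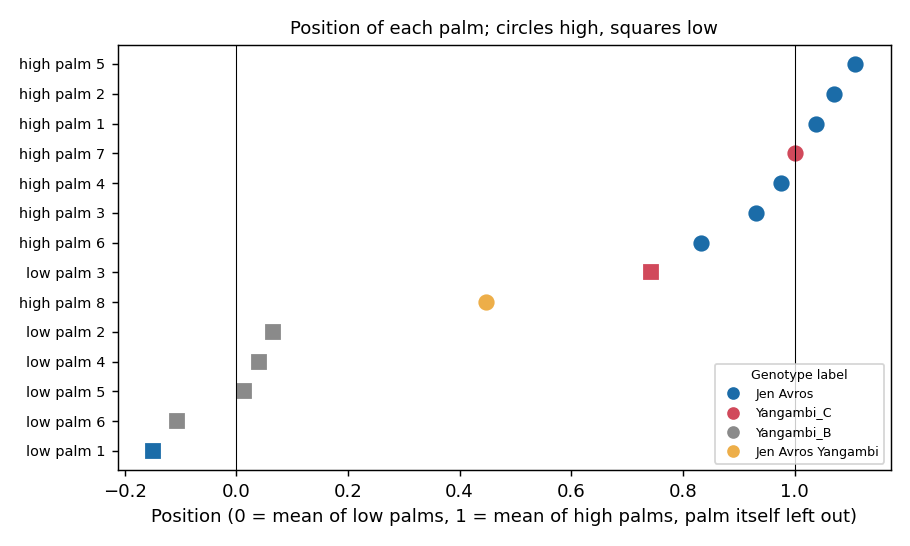
Position of each of the 14 palms between the mean of the low palms (0) and that of the high palms (1), computed without the palm itself, with circles for high and squares for low palms coloured by genotype label. The low Jen Avros palm lies at -0.15 with the Yangambi_B palms, while the low Yangambi_C palm (0.74) and the high Jen Avros Yangambi palm (0.45) lie between the groups.

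Within Yangambi_C, 1 high against 1 low palm, edgeR called 0 genes (0%), its smallest adjusted p being 0.512, and 830 had an unadjusted p below 0.05. By DESeq2 there were 23 and by limma-voom 0. The leading genes of the comparison of all palms had log2 differences of 2.55 ± 1.05 for LOC105054150, 2.32 ± 1.05 for LOC105059333, -1.99 ± 0.86 for LOC105058870 and -0.37 ± 1.39 for LOC105032996 (SE). These genes had been picked for no overlap between high and low palms, so that their direction here was fixed by that choice. For the difference between the contrasts of both labels edgeR again called 0 genes (0%), its smallest adjusted p being 0.292. An unadjusted p below 0.05 was found for 975, and there were 39 calls by DESeq2 and 0 by limma-voom. Low palm 3 differed from the 4 low Yangambi_B palms in 56 genes (0.281%) by edgeR, 39 higher and 17 lower. That count went to 4 without low palm 2, 13 without low palm 4, 5 without low palm 5 and 94 without low palm 6, and DESeq2 called 762.

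Pairs of palms were then compared directly, by the share of 17783 genes that lay at least 2-fold apart. The low Jen Avros palm had 24.8% to 31.0% of genes at that distance from the 6 high Jen Avros palms, with a median of 28.1%, and 7.75% to 16.2% from the 4 low Yangambi_B palms, with a median of 11.0%. High Jen Avros palms were 7.12% to 23.4% apart among themselves. The low Jen Avros palm was thus farther from every high palm of its label than those were from each other.

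For the low Yangambi_C palm the order was the other way round. It had 13.4% of genes at least 2-fold apart from the high palm of its label, 16.3% to 22.4% from the high Jen Avros palms, and 21.4% to 29.7% from the low Yangambi_B palms. Its nearest palm was high palm 8, with 1041 genes (5.85%) at least 2-fold apart. Of all 91 pairs only low palms 4 and 5 were closer, at 5.71%. The 48 pairs of a high with a low palm had a median of 27.8%, and the closest of them after that pair was at 13.4%. The first principal component of the 14 palms, with 35.5% of the variance, placed these palms alike, low palm 3 at 11.3 and high palm 8 at -4.40, against 27.8 to 69.5 for the other high palms and -82.0 to -59.2 for the other low palms.

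**Figure D5:**
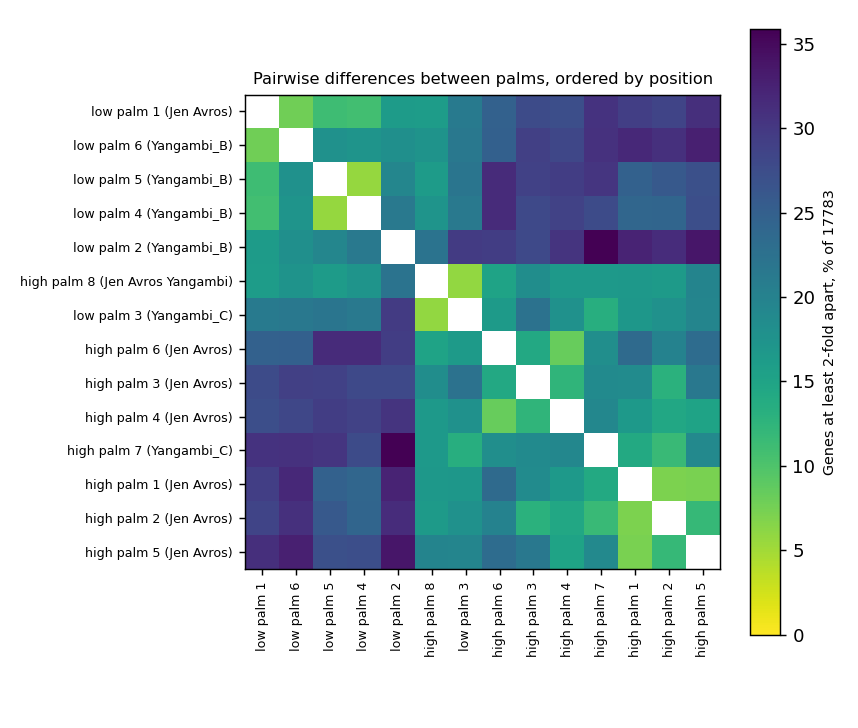
Share of 17783 genes at least 2-fold apart for each pair of the 14 palms, in percent, with palms ordered by their position between the groups and the genotype label beside each. High palm 8 and low palm 3 form a close pair (5.85%) although they belong to different groups, and low palm 1 is closer to the Yangambi_B palms than to any high palm of its own label.

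Palm identifiers also follow the group. High palms 1 to 7 have identifiers that begin with U, and low palms 1 and 2 have X and low palms 4, 5 and 6 ZX, whereas high palm 8 and low palm 3 are the 2 palms whose identifiers begin with Y. What the letters mark is not given in the sources used here, so that identifier series and group cannot be told apart in the other 12 palms. A fit was made with 1 mean for each series and group, X and ZX being joined into 1 series. It was chosen after high palm 8 and low palm 3 had been seen to lie close together. In it the 7 U palms differed from the 5 X and ZX palms in 6486 genes by edgeR (32.6%), 3158 higher and 3328 lower. The Y palms are 1 high and 1 low palm, whose spread is taken from the other palms, so that a low number of calls there adds nothing to their closeness. Between them 0 genes were called (0%), the smallest edgeR adjusted p being 1, and 228 had an unadjusted p below 0.05. DESeq2 made 2 calls and limma-voom 0.

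The high-low difference itself differed between the U to X and ZX contrast and the Y pair in 28 genes by edgeR (0.141%), 6 with a higher and 22 with a lower value in the first. The number depends on the tool, with 671 genes (311 higher, 360 lower) by DESeq2 and 56 (24 higher, 32 lower) by limma-voom. Among them were LOC105058870, at -5.97 ± 0.39 (SE) in the first contrast and -0.12 ± 0.81 in the Y pair (edgeR adjusted p of the difference 0.0474), and LOC105055259, at -5.59 ± 0.41 and 1.57 ± 0.89 (edgeR adjusted p of the difference 0.0428). For the other leading genes the difference was not called. LOC105054150 had log2 differences of 5.73 ± 0.55 and 0.17 ± 1.01 (SE), LOC105059333 of 5.27 ± 0.54 and 0.26 ± 0.98, and LOC105043387 of 5.84 ± 0.53 and -0.46 ± 0.97, with edgeR adjusted p of the difference of 0.103, 0.111 and 0.0626. GPAT was at -1.44 ± 0.20 and -0.01 ± 0.48 on the same scale, AQP (LOC105042909) at -1.53 ± 0.23 and 0.18 ± 0.57, and trnE-UUC at -2.13 ± 0.20 and 0.06 ± 0.47, with edgeR adjusted p of the difference of 0.271, 0.267 and 0.111.

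With the genotype label as a term in the comparison of all 14 palms, 7 of the 19 called genes named here kept their call in edgeR and all 19 kept their direction. The 7 were LOC105054150, LOC105058870, LOC105032996, LOC105055259, GPAT, trnE-UUC and trnY-GUA, with adjusted p from 0.00277 for LOC105058870 to 0.0489 for trnY-GUA. In that fit the difference between groups rests on the Jen Avros and Yangambi_C palms. Its only low palms are low palm 1 and low palm 3. Within Yangambi_C, low palm 3 lay on the low side of high palm 7 in 17 of the 19 genes. TRNAT-CGU and trnS-GCU went the other way there, with log2 differences of 1.23 and -0.90, against -3.71 and 1.44 within Jen Avros. The leading genes whose groups did not overlap had their direction fixed by how they were picked. With the library shares as terms 0 of the 19 were called and 17 kept their direction.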

How the data were processed

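Spear leaf RNA of 8 high and 6 low L2 palms was counted per gene. The values are the authors' deposited read counts, not normalized. The submitters' processing notes name bcl2fastq, HTSeq 0.11.2 and STAR 2.7.2b. The genome build, tool settings and strand handling are not given in the sources used here. There were 27986 genes and 5 HTSeq summary lines a table, and the latter stayed out of library sizes and tests. Symbols were matched to the EG11 gene table (25047 found), and its synonyms were used for names. No coordinates are given, as the files' build is not named.

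Counts were scaled by TMM, filtered with filterByExpr and tested with edgeR 4.0.16 (R 4.3.3; robust quasi-likelihood fit, Benjamini-Hochberg over all genes tested, called below 0.05). Standard errors come from the log2 difference and its F statistic. Log2 CPM used a prior count of 2. Contrasts within a genotype label came from 1 fit with a mean per group and label. Library measures were compared over all 3003 splits of the palms. DESeq2 1.42.0 and limma 3.58.1 (voom) were alternatives. The fits were tested on simulated counts.

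Among called, non-overlapping genes whose log2 CPM averaged 1 or more, the 2 identifiers that rose most and the 2 that fell most were named. The same rule without the overlap condition, and with every high palm on the side of the change, was used within Jen Avros. All tested nuclear genes with a symbol, called genes with a synonym, flower, embryo and DNA methylation genes, and called tRNA and plastid genes were also named. The lists by product name could not be matched, as no product names are given. The palms, lists and tests were chosen with earlier results of these data known. No 2 of the 14 libraries were identical.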

Additional observations from a re-analysis of the deposited data

Results flagged for a closer look

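Of 78 groups of values examined for 1 palm lying far from the rest of its group, 10 held such a palm. The palm was low palm 3 in 7 of them and high palm 8 in 3. Independent groups would be flagged by chance at about 1 in 20. These groups share the same palms, and many of the genes were picked for their high-low difference. Whether 10 is an excess was not tested. Low palm 3 stood apart in LOC105054150, at 120 CPM against 4.69 to 15.4 in the other low palms, in LOC105058870, at 12 CPM against 73.1 to 201, and in LOC105055259, at 12 CPM against 180 to 366. It also stood apart in IAA1, at 51.8 CPM against 202 to 273, and in trnY-GUA, at 71.8 CPM against 119 to 132. Its share of reads outside genes was 9.16% against 10.6% to 11.3%, and its position between the groups 0.743 against -0.149 to 0.066. High palm 8 stood apart in LOC105043387, at 7.49 CPM against 43.0 to 196 in the other high palms, in AQP (LOC105042909), at 209 CPM against 95.9 to 136, and in position, at 0.447 against 0.832 to 1.11.

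The high-low difference between U and X or ZX palms differed from that between the Y palms in 28 genes by an edgeR test of the difference. That split was chosen after both Y palms had been seen to stand apart, each Y group is 1 palm whose spread is taken from the other palms, and DESeq2 gave 671 genes. LOC105058870 (adjusted p = 0.0474) and LOC105055259 (adjusted p = 0.0428) were the named genes among them.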

How the results depend on the processing

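The count of 4670 genes called between high and low palms by edgeR lay between 3093 (without low palm 1) and 6139 (without low palm 3) when 1 palm was left out. It was 100 with a 2-fold minimum, 581 with the genotype label as a term, 0 with library shares as terms and 0 in CTAB libraries of 2 high and 2 low palms. At an unadjusted p below 0.05 these last 2 fits held 1985 and 2134 genes. It was 4698 with RLE scaling, 5756 with DESeq2, 4592 with limma-voom, 4508 without a filter, 4306 after thinning and 6544 without the Y palms, which was chosen after seeing the data. DESeq2 gave 1941 genes within Jen Avros, 23 within Yangambi_C, 39 for the difference of both, 3 and 762 for the low Jen Avros and low Yangambi_C palm against Yangambi_B, 2 for the Y pair and 671 for U to X and ZX against Y, where limma-voom gave 56. Leaving out 1 high palm gave 499 (without high palm 2) to 910 genes within Jen Avros, and leaving out 1 Yangambi_B palm 4 to 94 for low Yangambi_C against Yangambi_B. The cause of these changes was not tested. Of 919 values of named genes under alternatives, 773 kept direction and side of the threshold, 119 lost and 5 gained a call, and 22 changed sign. The changes of sign, which include the called genes IAA1, TPX and trnS-GCU, were as follows. TCTP (-0.02) turned to 0.0079 with limma-voom and 0.36 with the genotype term, and ran from -0.144 to 0.0902 with 1 palm left out. CPRZ turned to -0.10 with the genotype term. HCS (0.05) turned to -0.46 with library shares and -0.027 with Yangambi_B as the only low palms, and ran from -0.0709 to 0.221 with 1 palm left out. Library shares also gave -0.52 for DRM, 0.15 for IAA1, -0.51 for EgDRM1 (LOC105032137) and -0.0025 for trnS-GCU. CTAB libraries gave 0.28 for CPRF, -0.66 for GSK and -0.052 for TPX (LOC105044458). No paired analysis was possible because the labels give high and low palms no shared replicate numbers. With 1 low palm in each of Jen Avros and Yangambi_C, precision within a label is set by that palm.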
